A study of Mus musculus with 40 samples.

Results

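The expression of 32 genes of matrix proteases and their inhibitors was followed in the cervix and myometrium of pregnant mice. They were chosen from a given list of symbols, not by their values, and matched by mouse Entrez gene identifier to the rows of a count table of 23079 genes, in which all 32 were found. The list holds 14 matrix metalloproteinases (MMPs), 6 ADAMTS proteases, 4 cathepsins, 3 genes of plasminogen activation and 5 MMP inhibitors. The study compared these tissues late in gestation with and without human chorionic gonadotropin (hCG), the hormone of early pregnancy that signals through the receptor for luteinizing hormone. All animals were pregnant mice of the inbred strain C57BL/6, with no altered allele named in the labels, killed at 18.5 days post coitum, and they had been given hCG or phosphate-buffered saline (PBS) into the peritoneal cavity. The labels state neither the dose, nor the time from injection to collection, nor the age of the mice. RNA was sequenced in 40 libraries, 10 in each of 4 groups: PBS cervix, hCG cervix, PBS myometrium and hCG myometrium. Whether a library number stands for 1 animal is not stated in the labels, and p-values therefore measure the spread between libraries.

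Collagen and proteoglycan give the cervix its strength, and near term the cervix softens as this matrix is remodelled. The myometrium, the smooth muscle wall of the uterus, enlarges during pregnancy within a matrix of its own. MMPs are zinc proteases that are made as inactive precursors and cut collagens and other matrix proteins outside the cell. The tissue inhibitors TIMP bind their active sites, and RECK, a membrane-anchored protein, restrains several of them. ADAMTS proteases cut proteoglycans such as versican and aggrecan, and ADAMTS2 trims procollagen. Cathepsins degrade proteins mainly in lysosomes, and the plasminogen activators tPA and uPA turn plasminogen into plasmin, a serine protease that can activate MMP precursors.

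The sequence next to a transcription start is shown for the 7 members with a match to the AP-1 motif or the TATA box before the start. Members whose only matches were to the other searched motifs are not shown. Mmp13, Mmp12, Mmp3, Mmp10 and Mmp7 lie in 1 cluster on chromosome 9 and hold members whose level varied widely between libraries of 1 group. Plaur carries the same motif outside the cluster, and Adamts1 is a member that differed with hCG in cervix. Each line gives the 80 bases before the start from RefSeq on assembly GRCm38.p6, read 5′ to 3′ on the strand of the gene. Capitals mark matches to the AP-1 motif TGANTCA, the binding sequence of Fos and Jun proteins, and to the TATA box TATAAA.
Mmp13, chr9:7272434-7272513, + strand: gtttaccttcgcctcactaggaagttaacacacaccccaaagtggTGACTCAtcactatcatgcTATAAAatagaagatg
Mmp12, chr9:7347294-7347373, + strand: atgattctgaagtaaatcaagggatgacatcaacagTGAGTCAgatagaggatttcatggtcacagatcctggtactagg
Mmp3, chr9:7445742-7445821, + strand: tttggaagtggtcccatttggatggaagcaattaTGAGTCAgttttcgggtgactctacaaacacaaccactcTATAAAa
Mmp10, chr9:7502262-7502341, + strand: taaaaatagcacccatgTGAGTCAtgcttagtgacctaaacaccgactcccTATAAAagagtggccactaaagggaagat
Mmp7, chr9:7692010-7692089, + strand: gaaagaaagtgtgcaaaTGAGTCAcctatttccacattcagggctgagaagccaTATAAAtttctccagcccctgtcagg
Plaur, chr7:24462403-24462482, + strand: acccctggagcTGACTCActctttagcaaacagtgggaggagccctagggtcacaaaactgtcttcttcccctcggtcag
Adamts1, chr16:85803114-85803193, - strand: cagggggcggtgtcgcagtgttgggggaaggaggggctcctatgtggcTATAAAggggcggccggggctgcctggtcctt
RefSeq promoter entries were matched for 22 of the 32 members. Mmp2, Mmp9, Mmp16, Mmp19, Adamts4, Adamts5, Adamts15, Ctsb, Plat and Plau have no entry in the table. In the 250 bases before the start, searched on both strands, TGANTCA was found in 6 of the 22 members and in 6.75% of the 32851 entries of all genes. Of the 6 members, 5 are the neighbours of the chromosome 9 cluster. TATAAA was found in 5 of the 22 members and in 12.4% of all entries. The GC box GGGCGG was found in 13 members, Timp1, Timp2, Timp3, Mmp14 and Reck among them, and in 32.7% of all entries. The E-box CACGTG, a binding sequence of basic helix-loop-helix factors, was found in 3 members, Ctsd, Ctsl and Mmp7, and in 6.02% of all entries. For Mmp12 and Mmp7, which have 2 annotated starts each, the start with the AP-1 match is shown, and the other start has no AP-1 match. The start shown for Mmp12 lies downstream of its other start. A member was counted if any of its entries matched, while the shares of all genes are of single entries, 32851 for 27025 genes. A match describes the letters only, since no binding was measured.

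Total counts ran from 6613775 to 22274244 in hCG cervix, from 7255131 to 25028360 in PBS cervix, from 5449239 to 20603741 in hCG myometrium and from 5933199 to 20108002 in PBS myometrium. The summed level of 9 squamous epithelium markers, which line the lower cervix, was 9810 to 61700 CPM in PBS cervix and 6.23 to 46.4 CPM in PBS myometrium, where CPM is the count of a gene scaled to the normalised total of its library. The sum of 8 smooth muscle markers was 12900 to 28400 CPM in PBS myometrium and 2020 to 11800 CPM in PBS cervix, so the marker levels went with the tissue labels. Several libraries stood apart in other genes. In PBS cervix libraries 5 to 8, between 3.51% and 17.5% of counts belonged to Lars2, a mitochondrial tRNA synthetase gene. Lars2 also held 5.22% of counts in hCG myometrium library 3, and 5.63% and 4.61% in PBS myometrium libraries 2 and 8. Markers of skeletal muscle reached 6070 CPM in hCG cervix library 1, those of fat 1910 CPM in library 3, and those of urothelium 2350 CPM in library 5. In 8 myometrium libraries Afp, a yolk sac gene, was above 1000 CPM. For some calls the value without such libraries is given beside the call. With hCG in cervix, no member was called without hCG libraries 1, 3 and 5, or without PBS libraries 5 to 8. In tissue RNA, fewer cells of a type cannot be told apart from less RNA per cell.

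Compared per kilobase of the annotated transcript, cathepsins made the largest part of the summed level of the 32 genes in all 4 groups, from 40.3% in PBS cervix to 67.9% in hCG myometrium. In PBS cervix the order of mean levels was led by Ctsd, the aspartic protease cathepsin D, at 190 ± 54.9 CPM per kb (SD, n = 10). Adamts1 followed at 152 ± 74.5, Ctsb (cathepsin B) at 118 ± 110 and Timp2 at 72.5 ± 20.6 CPM per kb, and each differed from the next by less than the larger of the 2 SDs. In PBS myometrium the order was led by Ctsb at 1150 ± 283 CPM per kb, well above Ctsd at 300 ± 71.2. Mmp7 was at 163 ± 39.7 CPM per kb there, at rank 3, and at 7.6 ± 10.1 in PBS cervix, at rank 16. The gelatinase Mmp2 was the highest MMP in PBS cervix, at 52.4 ± 14.8 CPM per kb, against 1.15 ± 0.53 for the other gelatinase, Mmp9. Mmp13, Mmp10, Timp4 and Mmp12 were at or under 1 CPM per kb in the mean of both PBS groups, Mmp12 at 0.778 in cervix and 0.578 in myometrium. A count of 0 allows a level of up to 0.12 CPM where depth was greatest and up to 0.551 CPM where it was least (3 counts, counting error only). Levels of Ctsd, Ctsl, Mmp19, Ctsb, Mmp7, Adamts9 and Timp4 may include reads of overlapping genes. These share 31.5%, 28.2%, 27.9%, 16.3%, 11.5%, 7.36% and 1.64% of their annotated exon bases, in that order, with another gene, and the counting strand is not given.

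**Figure D1:**
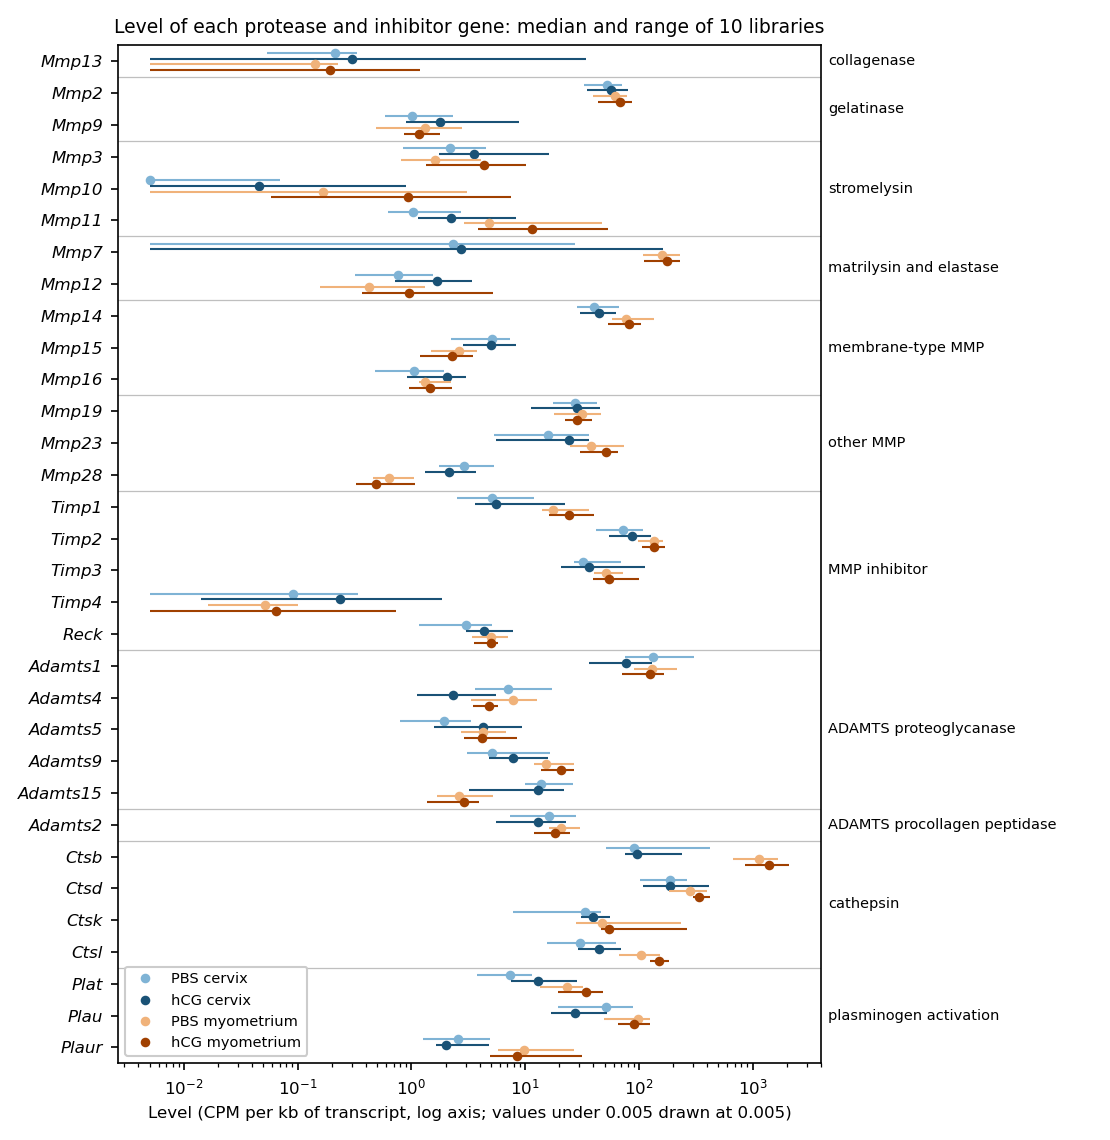
Level of each of the 32 genes in the 4 groups, in CPM per kilobase of transcript on a log axis, grouped by role; points are medians and lines run from the lowest to the highest of 10 libraries. Ctsb, Mmp7, Timp1, Ctsl and Plaur sit further right in both myometrium groups, Adamts15 and Mmp28 further right in both cervix groups, and the lines of Mmp13 and Mmp7 in hCG cervix reach up to 34.3 and 162 CPM per kb.

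The first comparison asked how the cervix differs from the myometrium without hCG. In PBS mice, 17 of 29 tested members were lower and 3 were higher in cervix, with 9 not called. All 4 cathepsins, all 3 plasminogen activation genes and all 4 tested inhibitors were lower. Adamts15, Mmp28 and Mmp15 were the 3 higher genes. A gene was called at an adjusted p under 0.05 in edgeR's quasi-likelihood test with Benjamini-Hochberg adjustment over all genes tested, to which every adjusted p below belongs unless another tool is named. Over all 14545 genes tested, 54% were called, 28% higher and 26.1% lower. The median log2 fold change of the members was -0.68, beside 0.04 for all genes. Mmp13, Mmp10 and Timp4 did not pass the filter on low counts.

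Cathepsin B, a lysosomal cysteine protease encoded by Ctsb (chr14:63122462-63145923), ranged from 242 CPM over a median of 433 to 2020 in PBS cervix. In PBS myometrium Ctsb ranged from 3210 over 5390 to 7870 CPM, so that the groups did not overlap. The log2 fold change was -3.30 ± 0.34 (SE), or 9.83-fold lower, with an adjusted p of 3.37e-08. Cathepsin L (Ctsl), another lysosomal cysteine protease, ran from 95.5 over 186 to 391 CPM in cervix and from 410 over 650 to 942 CPM in myometrium. The Ctsl groups did not overlap either, with a log2 fold change of -1.72 ± 0.20 (adjusted p = 2.36e-07). Cathepsin K (Ctsk), a collagen-cutting cathepsin best known from bone, had 11.9, 50.7 and 70.4 CPM as lowest, median and highest value in cervix. In myometrium these were 42.8, 72.2 and 358 CPM, the last in library 1 alone. Ctsk was lower in cervix by a log2 fold change of -1.15 ± 0.36 (adjusted p = 0.0109), with overlapping groups. Without PBS myometrium library 1 the Ctsk value was -0.60 (adjusted p = 0.0418), and without PBS cervix libraries 5 to 8 it was -1.002 (adjusted p = 0.0595). Ctsd was lower by -0.68 ± 0.17 (adjusted p = 0.00176).

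Of the plasminogen activation genes, Plaur, the receptor that holds uPA on the cell surface, ran from 1.9 over 3.89 to 7.48 CPM in cervix. In myometrium it ran from 8.68 over 14.7 to 40.8 CPM, without overlap, and the log2 fold change was -2.21 ± 0.31 (adjusted p = 3.22e-06). The PBS myometrium libraries over 1000 CPM of Afp, 4, 8 and R3, had the highest Plaur, at 40.8, 34.9 and 24.5 CPM. The others were at most at 18.4 CPM. In 13 alternative fits, 1 of them without these libraries, the Plaur value ran from -2.658 to -1.648 and stayed past the threshold. Plat, the gene of tPA, ranged from 9.62 over 18.5 to 29.4 CPM in cervix and from 34 over 58.8 to 82.2 CPM in myometrium, also without overlap (log2 -1.65 ± 0.20, adjusted p = 3.24e-07). Plau, the gene of uPA, overlapped between the tissues. Its range was 45.4 over 120 to 209 CPM in cervix and 116 over 232 to 292 CPM in myometrium (log2 -0.84 ± 0.23, adjusted p = 0.00322).

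Matrilysin, a small MMP of glandular epithelium encoded by Mmp7 (chr9:7692090-7699585), had the largest difference of all members. It ran from 0 over 2.5 to 29.6 CPM in PBS cervix and from 115 over 170 to 247 CPM in PBS myometrium, and the groups were far apart. The log2 fold change of Mmp7 was -4.46 ± 0.70 (adjusted p = 1.4e-05). Stromelysin 3, encoded by Mmp11, ranged from 1.44 over 2.37 to 6.24 CPM in cervix and from 6.71 over 11 to 108 CPM in myometrium. The groups of Mmp11 did not overlap (log2 -2.93 ± 0.49, adjusted p = 2.87e-05), and the highest value came from PBS myometrium library 1. Without that library the log2 fold change was -2.08, and the gene stayed past the threshold.

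Mmp14, the membrane-bound MMP that activates pro-MMP2, ran from 74.6 over 104 to 174 CPM in cervix and from 150 over 200 to 350 CPM in myometrium (log2 -0.92 ± 0.17, adjusted p = 0.000108). Mmp2 itself did not pass, at 101 over 161 to 220 CPM in cervix and 121 over 189 to 243 CPM in myometrium (log2 -0.27 ± 0.16, adjusted p = 0.146). Mmp9 did not pass either, at 1.87 over 3.23 to 7.42 CPM in cervix and 1.57 over 4.21 to 8.88 CPM in myometrium (log2 -0.29 ± 0.28, adjusted p = 0.403). The activator of MMP2 thus differed between the tissues, while no difference was called for either gelatinase.

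Among the inhibitors, Timp1, a secreted inhibitor of most soluble MMPs, ran from 2.21 over 4.48 to 10.5 CPM in cervix and from 12.4 over 15.5 to 32.3 CPM in myometrium, without overlap. Its log2 fold change was -1.80 ± 0.26 (adjusted p = 4.17e-06). Timp2, which also takes part in the activation of pro-MMP2 by MMP14, ran from 157 over 272 to 400 CPM in cervix and from 365 over 499 to 609 CPM in myometrium (log2 -0.91 ± 0.15, adjusted p = 3.01e-05). Timp3, the inhibitor bound to the matrix, which also blocks several ADAMTS proteases, differed less. It ran from 126 over 151 to 332 CPM in cervix and from 190 over 245 to 346 CPM in myometrium (log2 -0.55 ± 0.16, adjusted p = 0.00517). Reck was lower in cervix by a log2 fold change of -0.68 ± 0.19 (adjusted p = 0.00489).

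Of the 3 members that were higher in cervix, Adamts15, a versican-cutting protease, ran from 59.3 over 81.1 to 157 CPM in cervix and from 10.1 over 15.7 to 30.9 CPM in myometrium. The Adamts15 groups did not overlap (log2 2.39 ± 0.23, adjusted p = 1.04e-08). Epilysin, an MMP of surface epithelia encoded by Mmp28, ran from 4.33 over 7.17 to 13.1 CPM in cervix and from 1.14 over 1.55 to 2.61 CPM in myometrium, again without overlap (log2 2.15 ± 0.22, adjusted p = 3.03e-08). Mmp15, a membrane-type MMP, overlapped between the tissues (log2 0.87 ± 0.20, adjusted p = 0.000998). The aggrecan-cutting genes were divided. Adamts5 and Adamts9 were lower in cervix, by -1.13 ± 0.22 and -1.32 ± 0.29 on the log2 scale (adjusted p = 0.00015 and 0.000563), while Adamts4 did not pass (0.16 ± 0.28, adjusted p = 0.644). Mmp23 was lower in cervix (log2 -1.33 ± 0.28, adjusted p = 0.00037). The members not called were Mmp2, Mmp9, Mmp3, Mmp12, Mmp16, Mmp19, Adamts1, Adamts4 and Adamts2.

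Between the tissues of PBS mice, 9 of 29 members did not overlap, 2 higher and 7 lower, beside 14.3% of all genes tested, 7.21% higher and 7.13% lower. Markers of other cells also differed between the tissues of PBS mice. Of 10 macrophage and monocyte markers, 8 were lower and 1 higher in cervix, and their sum was 232 to 702 CPM in cervix and 905 to 1700 CPM in myometrium, without overlap. Of 7 endothelium markers, 6 were lower and none higher, with sums of 147 to 333 and 416 to 613 CPM. All 8 smooth muscle markers and 5 of 8 fibroblast markers were lower, and all 9 squamous epithelium markers were higher. Of 8 yolk sac markers, 7 were lower (median log2 -4.56), with sums of 42 to 332 CPM in cervix and 260 to 23700 CPM in myometrium. Of 3 tested markers of decidua and trophoblast, 2 were lower, and of 5 tested adipocyte markers, 4 were higher. Markers of glandular and luminal epithelium went both ways, with 3 of 8 higher (Epcam, Cdh1 and Foxa2), 3 lower (Krt8, Krt19 and Prap1) and a median log2 fold change of 0.25. Their sum, 1320 to 6210 CPM in cervix and 10500 to 26900 CPM in myometrium, was mostly Prap1, which ran from 1.83 over 221 to 5080 CPM in cervix and from 9560 to 24600 CPM in myometrium. Within PBS cervix, library R3 had the highest Prap1 and also the highest Ctsb, Mmp7, Mmp11 and Timp1. R3 had the highest level of 18 of the 32 members in its group. The part of cell content in the tissue difference was not tested.

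**Figure D2:**
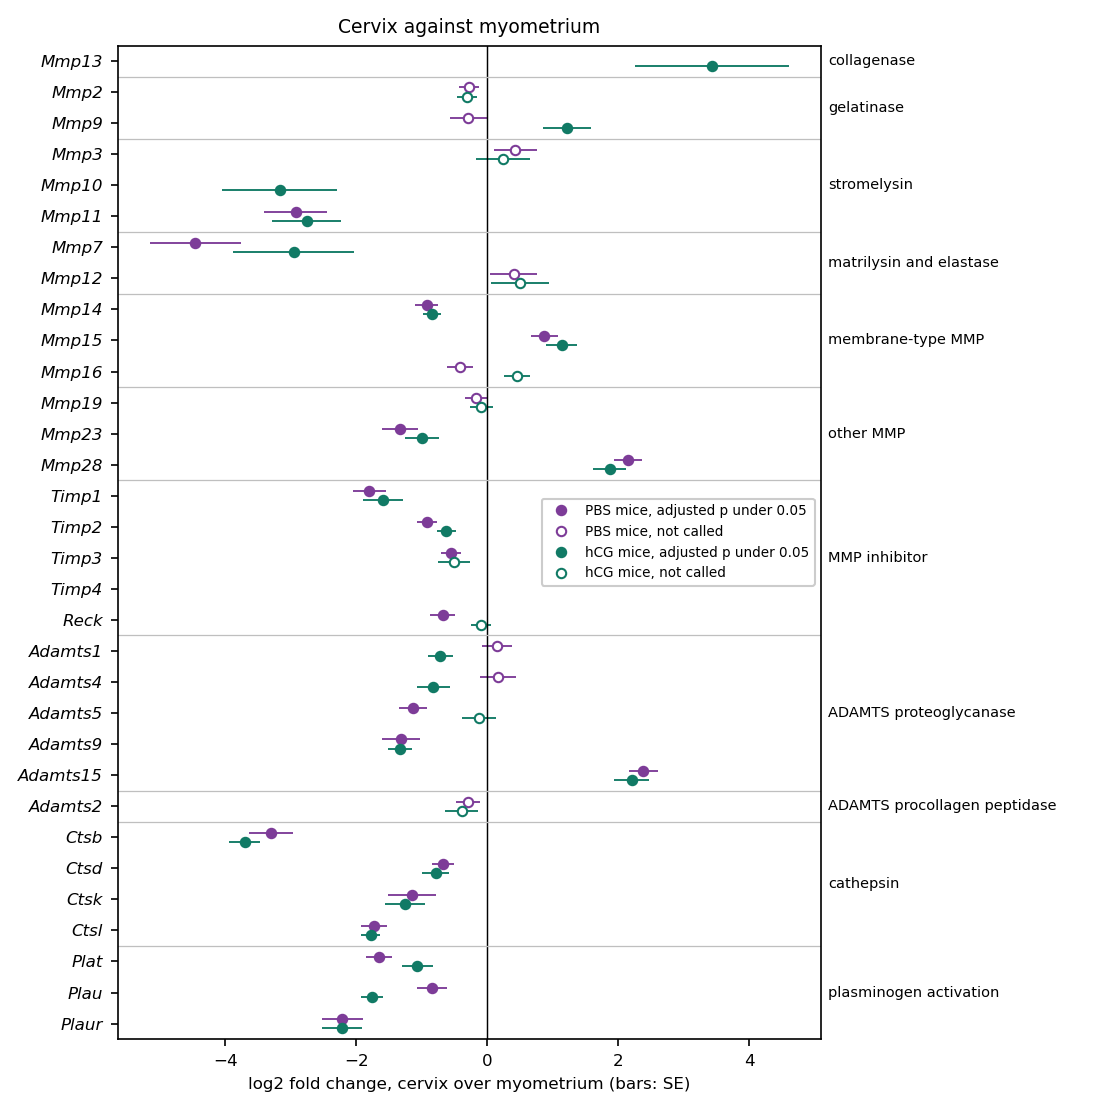
Log2 fold change of cervix over myometrium (horizontal axis, bars are SE) for each gene by role, in PBS and in hCG mice with 10 libraries per group; filled points passed an adjusted p of 0.05. Most filled points lie left of 0, led by Mmp7 and Ctsb, while Adamts15, Mmp28 and Mmp15 lie right of 0 in both treatments; genes without a point did not pass the filter on low counts.

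The same comparison in hCG mice used the other 20 libraries. Of 31 tested members, 17 were lower and 5 higher in cervix, beside 19.4% lower and 24.3% higher of the 14974 genes tested, of which 43.7% were called in all. Adamts15 (log2 2.21 ± 0.27), Mmp28 (1.87 ± 0.26) and Mmp15 (1.14 ± 0.23) were higher there too, with adjusted p of 1.14e-06, 6.93e-06 and 0.000516. Mmp9 was higher in hCG cervix by 1.22 ± 0.37 on the log2 scale (adjusted p = 0.0101). Without hCG cervix libraries 1, 3 and 5 the Mmp9 value was 0.24 (adjusted p = 0.357). Mmp13, the main interstitial collagenase of the mouse, was called higher at 3.44 ± 1.18 (adjusted p = 0.0232). It ran from 0 to 1.56 CPM in the other 9 hCG cervix libraries and stood at 91.6 CPM in library 1, against 0 over 0.518 to 3.18 CPM in hCG myometrium. Without library 1 Mmp13 did not pass the filter on low counts and had no test, and with DESeq2 its value was -0.32 (adjusted p = 0.717). Every alternative fit that tested Mmp13 kept library 1, so none shows the call apart from that library. Mmp7 was lower in hCG cervix at -2.96 ± 0.92 (adjusted p = 0.0132), and without library 3 its value was -4.77 (adjusted p = 5.25e-05). Mmp10, stromelysin 2, was lower in hCG cervix at -3.17 ± 0.88 (adjusted p = 0.00593), with 5 of 10 cervix libraries at 0 counts. Of 31 members, 5 did not overlap between the tissues, Mmp28 higher and Ctsb, Ctsl, Plau and Plaur lower, beside 7.61% of all genes, 3.22% higher and 4.39% lower.

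Of 71 other genes of the same pathways in a fixed list, 54 were tested between the tissues of PBS mice, and 35 were lower and 6 higher in cervix, beside 26.1% lower and 28% higher of all genes. All 10 tested members of the other cathepsins were lower, among them Lgmn, which encodes the asparagine-specific protease legumain (log2 -1.9995 ± 0.21, adjusted p = 6.1e-08). Other lower genes were Mmp17 (log2 -3.00 ± 0.34, adjusted p = 1.79e-07), Adam33 (-2.91 ± 0.34, adjusted p = 2.96e-07) and Dpp4, a membrane dipeptidase (-2.45 ± 0.19, adjusted p = 6.61e-10). Serpine2, an inhibitor of plasminogen activators, was lower as well (-1.70 ± 0.23, adjusted p = 1.96e-06). The largest positive values belonged to inhibitors of keratinised epithelium. Csta1, a cysteine protease inhibitor, ran from 9.68 over 42.1 to 116 CPM in PBS cervix and from 0 to 0.508 CPM in PBS myometrium (adjusted p = 4.54e-11). Serpinb2, an inhibitor of uPA, ran from 2.54 over 20.4 to 73.9 CPM in cervix and from 0 to 0.352 CPM in myometrium (adjusted p = 7.13e-09). In hCG mice 36 of 55 tested genes of the list were lower and 5 higher in cervix, beside 19.4% and 24.3% of all genes.

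The next comparison asked what hCG changed in the cervix. Of 29 tested members, 5 were higher and 3 lower after hCG. The higher genes were Mmp9, Mmp12, Mmp16, Adamts5 and Plat, and the lower genes were Adamts1, Adamts4 and Plau. Over all 14932 genes tested, 8.91% were called, 4.74% higher and 4.17% lower. The median log2 fold change of the members was 0.27, beside 0.007 for all genes. No TIMP was called, nor were Mmp2, Mmp14 or any of the 4 cathepsins. For none of the 29 members were the groups separate, beside 0.0469% of all genes, 0.0201% higher and 0.0268% lower.

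Gelatinase B, which cuts denatured collagen and is stored in neutrophils, is encoded by Mmp9 (chr2:164940326-164955850). Its lowest, median and highest values were 1.87, 3.23 and 7.42 CPM in PBS cervix and 2.84, 5.72 and 28.4 CPM in hCG cervix. Libraries 1, 5 and 3 of hCG cervix were high, at 28.4, 17.3 and 12.3 CPM, and the other 7 lay within the PBS range. The log2 fold change was 1.35 ± 0.40 (adjusted p = 0.0408), and 9 of 10 hCG libraries were above the PBS median. Without libraries 1, 3 and 5 the Mmp9 value was 0.37 (adjusted p = 0.485).

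Macrophage elastase, which cuts elastin, is encoded by Mmp12 (chr9:7344397-7360461) and ran from 1.16 over 2.75 to 5.57 CPM in PBS cervix. In hCG cervix it ran from 2.57 over 6.03 to 12.3 CPM, and 6 of 10 libraries were above all PBS libraries. The log2 fold change of Mmp12 was 1.28 ± 0.34 (adjusted p = 0.0321). Mmp16, a membrane-type MMP (chr4:17853072-18117479), ran from 2.39 over 5.28 to 9.79 CPM in PBS and from 4.58 over 10.3 to 15.2 CPM in hCG cervix. Here too 6 of 10 hCG libraries were above all PBS libraries (log2 0.86 ± 0.23, adjusted p = 0.0326). For both genes the lower part of the hCG range overlapped the upper part of the PBS range.

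The ADAMTS proteoglycanases moved in both directions. Adamts4, an aggrecan- and versican-cutting protease (chr1:171250129-171262267), ran from 16 over 31.1 to 75.9 CPM in PBS cervix and from 4.91 over 10.3 to 24.4 CPM in hCG cervix. All 10 hCG libraries were below the PBS median and 7 were below every PBS library (log2 -1.71 ± 0.33, adjusted p = 0.0263). Adamts1 (chr16:85793827-85803113), a versican-cutting protease known for its role in ovulation, ran from 368 over 650 to 1490 CPM in PBS and from 177 over 376 to 636 CPM in hCG cervix. Again all 10 hCG libraries were below the PBS median, 5 of them below every PBS library (log2 -0.99 ± 0.26, adjusted p = 0.0306). Adamts5 (chr16:85858157-85901125), the other main aggrecan-cutting protease of the mouse, ran from 8.64 over 20.9 to 35.9 CPM in PBS and from 17.3 over 46.5 to 101 CPM in hCG cervix. It was higher in 9 of 10 hCG libraries than the PBS median and above every PBS library in 6 (log2 1.16 ± 0.29, adjusted p = 0.0293). Adamts9, Adamts15 and Adamts2 did not pass, with log2 values of 0.23 ± 0.29, -0.23 ± 0.26 and -0.32 ± 0.28.

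The plasminogen activators also moved apart. Plat (chr8:22757722-22782848) ran from 9.62 over 18.5 to 29.4 CPM in PBS cervix and from 19.2 over 33.2 to 72.5 CPM in hCG cervix. All 10 hCG libraries were above the PBS median and 6 were above every PBS library (log2 1.10 ± 0.25, adjusted p = 0.0275). Plau (chr14:20836662-20843388) ran from 45.4 over 120 to 209 CPM in PBS and from 39.7 over 64.5 to 124 CPM in hCG cervix. It was below the PBS median in 9 of 10 hCG libraries and below every PBS library in 1 (log2 -0.91 ± 0.25, adjusted p = 0.0338). The uPA receptor gene Plaur did not pass (log2 -0.13 ± 0.25, adjusted p = 0.766).

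**Figure D3:**
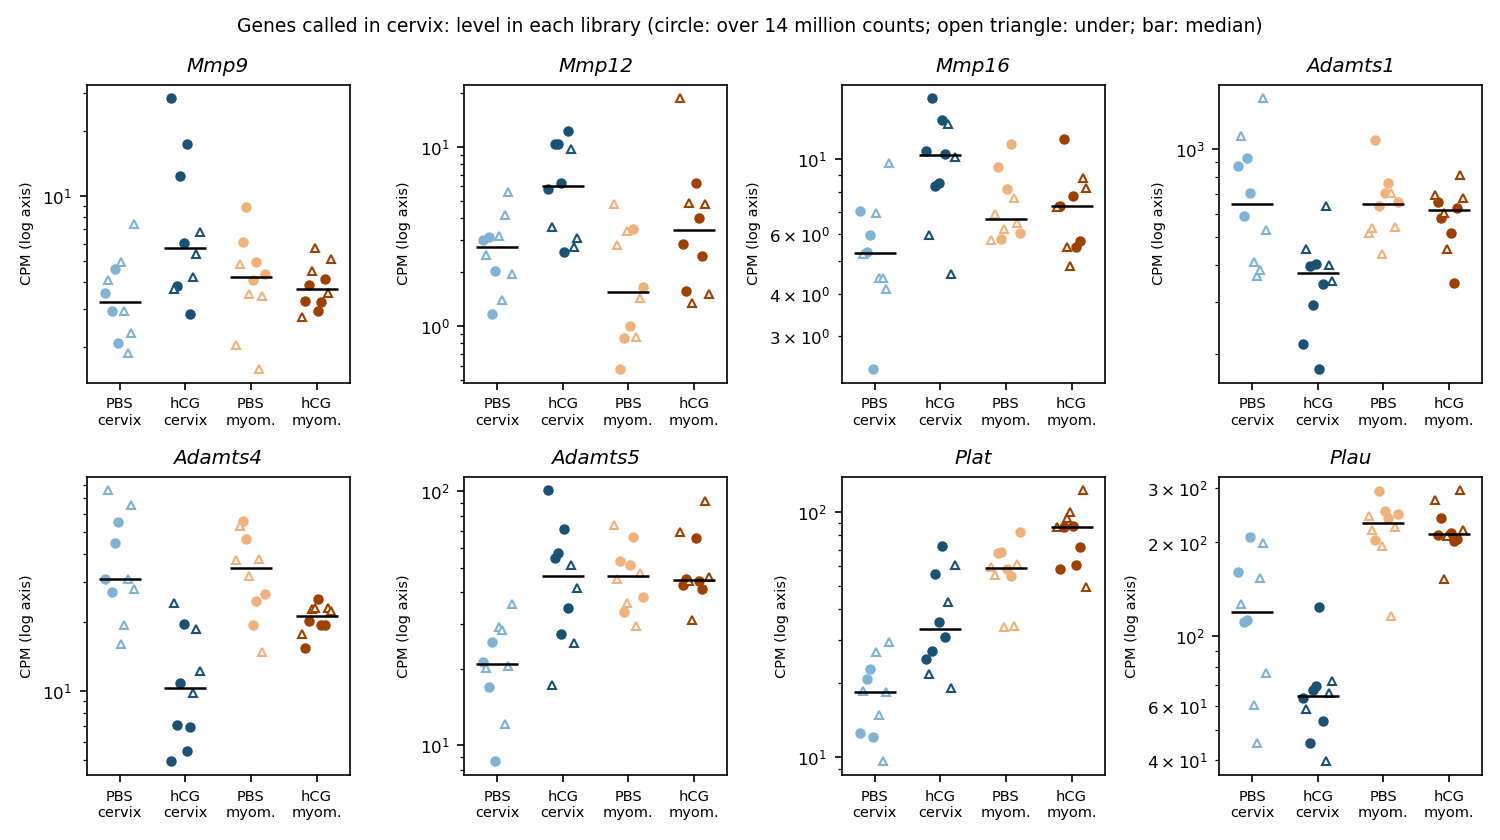
Level in CPM (vertical log axes, one scale per gene) of the 8 genes called in cervix, by group with 10 libraries each; circles are the deeper libraries, open triangles the shallower ones, and bars are medians. In hCG cervix Mmp9 has 3 circles far above the rest, while all 10 hCG libraries lie below the PBS median for Adamts4 and above it for Plat.

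Of the members that were not called, Mmp11, at 1.14 ± 0.36 on the log2 scale, lay just outside the threshold (adjusted p = 0.0501), with all 10 hCG libraries above the PBS median. Mmp3, stromelysin 1, which can activate other MMP precursors, had 1.198 ± 0.42 (adjusted p = 0.0696). Ctsk had 0.58 ± 0.22 (adjusted p = 0.0824) and ran from 46.8 over 60 to 84 CPM in hCG cervix. Reck had 0.57 ± 0.22 (adjusted p = 0.0881). The inhibitors Timp1, Timp2 and Timp3 had log2 values of 0.49 ± 0.34, 0.30 ± 0.17 and 0.27 ± 0.26 (adjusted p = 0.36, 0.256 and 0.516). Timp1 ran from 3.19 over 4.96 to 19.7 CPM in hCG cervix, Timp2 from 202 over 324 to 471 and Timp3 from 98.6 over 172 to 532. Mmp2 ran from 109 over 177 to 246 CPM (log2 0.10 ± 0.17, adjusted p = 0.725) and Mmp14 from 79.4 to 164 CPM (log2 0.09 ± 0.17, adjusted p = 0.752). Mmp7 ran from 0 to 173 CPM in hCG cervix, and its difference of 1.59 ± 1.12 had an adjusted p of 0.362. The other tested members, Mmp15, Mmp19, Mmp23, Mmp28, Ctsb, Ctsd and Ctsl, lay between -0.48 and 0.52. Mmp13, Mmp10 and Timp4 did not pass the filter.

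**Figure D4:**
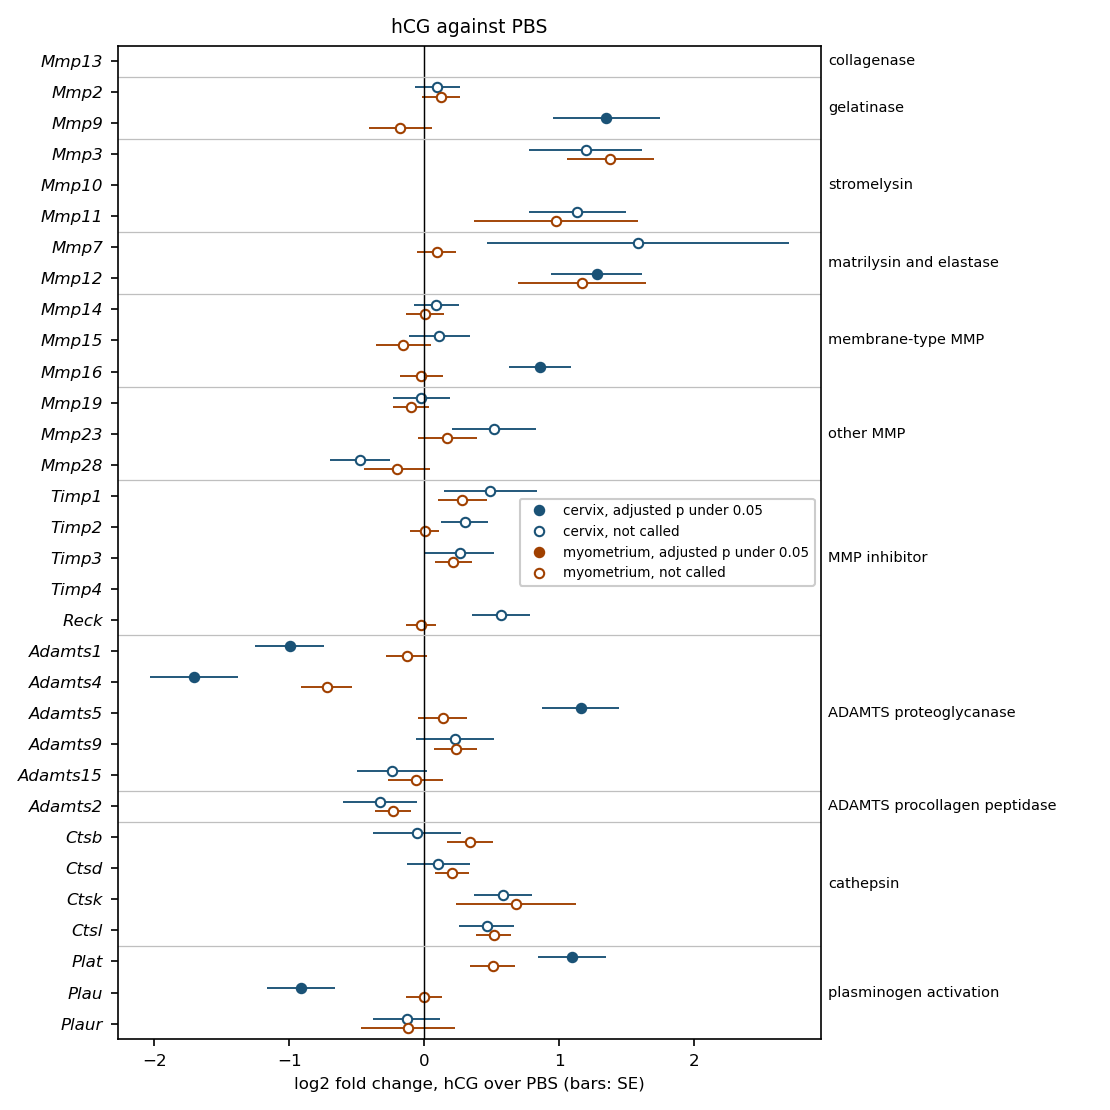
Log2 fold change of hCG over PBS (horizontal axis, bars are SE) for each gene by role, in cervix and in myometrium with 10 libraries per group; filled points passed an adjusted p of 0.05. The 8 filled points are all from cervix, 5 right and 3 left of 0, and genes without a point did not pass the filter on low counts.

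Markers of other cells moved with hCG in the cervix. Of 9 neutrophil markers, 8 were measured, none of them at 0 in all libraries of a group, and 3 of 5 tested were higher. Their sum ran from 6.69 over 14.2 to 23.9 CPM in PBS cervix and from 5.35 over 55.6 to 238 CPM in hCG cervix. The hCG libraries did not have the same order by Mmp9 and by that sum. Library 1 was highest in both, with 28.4 CPM of Mmp9 and a sum of 238 CPM. Library 5 had 17.3 CPM of Mmp9 at the lowest sum, 5.35 CPM, and library 6 had the lowest Mmp9, 2.84 CPM, at a sum of 234 CPM. Of 10 macrophage and monocyte markers, 3 were higher, and their sum ran from 232 over 555 to 702 CPM in PBS and from 460 over 670 to 1270 CPM in hCG cervix. Mmp12 was highest in libraries 6, 2 and 3, at 12.3, 10.4 and 10.3 CPM, where that sum was 484, 660 and 1270 CPM, the last its highest value. Of 6 urothelium markers, 5 were higher after hCG, with a median log2 fold change of 3.44. Their sum was 2350, 636 and 193 CPM in libraries 5, 3 and R3, at most 32.5 CPM in the other hCG libraries and at most 68.9 CPM in PBS cervix. Squamous epithelium markers, 2 of 9 called lower, ran from 9810 over 21300 to 61700 CPM in PBS and from 1410 over 6190 to 16300 CPM in hCG cervix. Library 5 of hCG cervix had the highest smooth muscle sum, 25000 CPM, and also the highest Timp3, Plau, Plat, Ctsd and Reck. The part of cell content in the changes with hCG was not tested.

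The calls in cervix depended on which libraries entered. No member was called without hCG cervix libraries 1, 3 and 5 or without PBS cervix libraries 5 to 8, where 11 and 14 members had an unadjusted p under 0.05 and 0 and 1 genes of all were called. Leaving out hCG library 3, or PBS library 4, 7 or 8, also left no member called, and 13 to 15 members had an unadjusted p under 0.05 in these 4 fits. In the main fit 14 of 29 members and 4362 of all 14932 genes were under that p. For the other fits the number of all genes under that p was not counted, so these member counts have no share beside them. Without PBS library R3, 13 members were called, of 1877 genes called in all. Each of the 8 members kept its direction in all 33 alternative fits, and it stayed past the threshold in 13 (Mmp9) to 26 (Adamts4) of them. Of these fits 20 leave out only 1 library, so they are not independent of each other or of the main fit. Within the 10 cervix libraries that were deeper (hCG 1 to 6 and PBS 1 to 4) 2 members were called, Adamts1 and Adamts4, of 242 genes in all. Within the 10 shallower ones no member was called, of 0 genes in all, with 3 members at an unadjusted p under 0.05. The log2 fold change of Mmp9 was 1.90 at greater depth against 0.34 at lower depth, and Adamts5 had 1.71 and 0.47. Plat had 1.31 and 0.88, Plau -1.04 and -0.92, and Adamts4 -2.08 and -1.27.

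**Figure D5:**
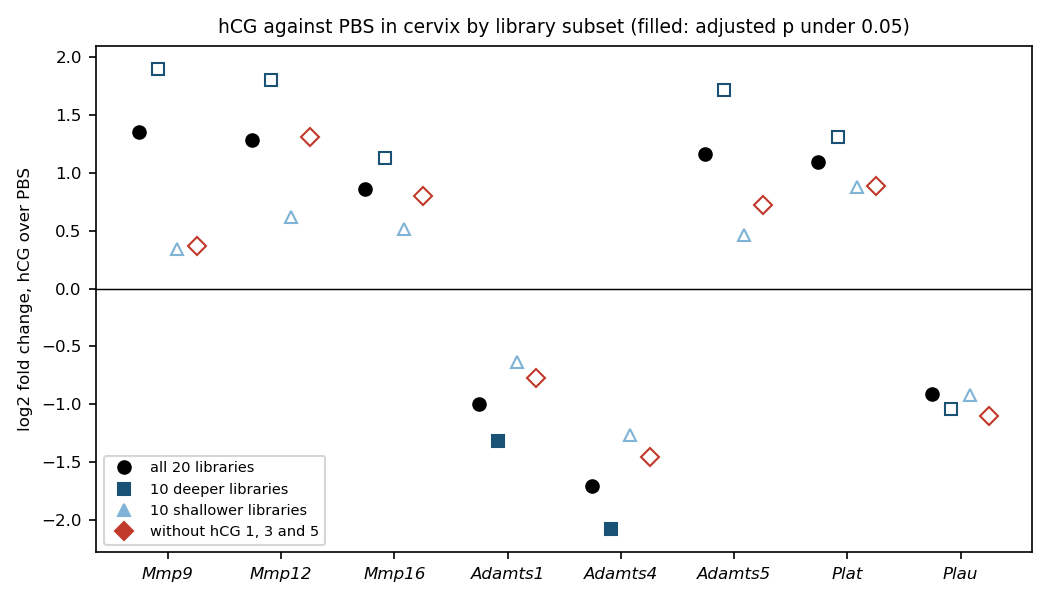
Log2 fold change of hCG over PBS in cervix (vertical axis) for the 8 called genes in all 20 libraries, in the 10 deeper, in the 10 shallower, and without hCG libraries 1, 3 and 5; filled symbols passed an adjusted p of 0.05. All symbols of a gene lie on the same side of 0, and those of Mmp9 run from 0.34 to 1.90.

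Of the fixed list of 71 other pathway genes, 55 were tested for hCG in cervix, with 2 higher and 1 lower, beside 8.91% of all genes called. Ctss, cathepsin S of antigen-presenting cells, ran from 13.6 over 30.8 to 46.7 CPM in PBS and from 31.8 over 58 to 96.8 CPM in hCG cervix (log2 0.87 ± 0.21, adjusted p = 0.0293). Adam33, a membrane-anchored metalloprotease, ran from 0.892 over 3.21 to 8.71 CPM in PBS and from 3.42 over 6.08 to 38.7 CPM in hCG cervix (log2 1.65 ± 0.51, adjusted p = 0.0456). Cst6, a cysteine protease inhibitor of squamous epithelium, ran from 0.889 over 4.19 to 18 CPM in PBS and from 0.0781 over 0.966 to 3.09 CPM in hCG cervix (log2 -2.03 ± 0.56, adjusted p = 0.0342). In all 3 genes the groups overlapped.

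In the myometrium the same question gave no called member. Of 29 tested, 0 passed in edgeR's test, with 5 at an unadjusted p under 0.05, beside 0.0138% of 14517 genes called, 0.00689% in each direction, and 2255 at an unadjusted p under 0.05. DESeq2 called 3 members and 384 genes in all, and limma voom 0 members and 3 genes. The groups of all 29 members overlapped, beside 0.00689% of genes without overlap, all of it lower. The nearest was Mmp3, which ran from 1.46 over 2.93 to 7.42 CPM in PBS and from 2.45 over 7.84 to 18.2 CPM in hCG myometrium (log2 1.38 ± 0.33, adjusted p = 0.0941). Its highest hCG values, 12.4, 11.1 and 18.2 CPM, were in libraries 5, 6 and 8. Ctsl ran from 410 over 650 to 942 CPM in PBS and from 769 over 934 to 1130 CPM in hCG myometrium (log2 0.52 ± 0.13, adjusted p = 0.0974). Adamts4 had lower values after hCG, from 15.4 over 21.4 to 25.3 CPM against 14.8 over 34.6 to 55.6 CPM in PBS (log2 -0.72 ± 0.19, adjusted p = 0.0977). In DESeq2 Adamts4 passed, at -0.73 (adjusted p = 0.0194).

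Of the members called in cervix, the other 7 had these values in myometrium. Mmp9 was -0.18 ± 0.23, Mmp12 1.17 ± 0.47, Mmp16 -0.02 ± 0.16 and Adamts1 -0.13 ± 0.15 on the log2 scale, with adjusted p from 0.222 to 0.975. Adamts5 was 0.14 ± 0.18 and Plat 0.51 ± 0.17 (adjusted p = 0.786 and 0.138), and Plau was near 0 with an SE of 0.13. Timp1, Timp2 and Timp3 were 0.28 ± 0.18, 0.00 ± 0.11 and 0.22 ± 0.14, and Mmp2 and Mmp14 were 0.13 ± 0.14 and 0.01 ± 0.14, none called. Ctsk was 0.68 ± 0.45 (adjusted p = 0.492), with medians of 83.2 CPM after hCG and 72.2 CPM after PBS. It was highest in hCG libraries 5, 6 and 8, at 240, 288 and 402 CPM, and in PBS library 1, at 358 CPM. Those hCG libraries were also the highest for Mmp3, Mmp10 and Mmp11, and the cause was not tested. The sum of 8 yolk sac markers ran from 260 over 855 to 23700 CPM in PBS and from 367 over 4090 to 37600 CPM in hCG myometrium. Without the 8 libraries over 1000 CPM of Afp no member was called, with 3 at an unadjusted p under 0.05, and Mmp12 was at 0.29 (adjusted p = 0.909). Of the other pathway genes 0 of 52 tested passed, with 12 at an unadjusted p under 0.05.

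The last comparison asked whether the response to hCG differed between the tissues, as the interaction of tissue and treatment over all 40 libraries. Of 32 members tested, 0 passed in edgeR's test, with 8 at an unadjusted p under 0.05, beside 3120 of all 15624 genes at that p and 0.352% called, 0.128% higher and 0.224% lower. DESeq2 called 2, Mmp9 and Plau, of 566 genes in all, and limma voom 0 of 571. The smallest p belonged to Plau, whose log2 response was lower in cervix by a difference of -0.92 ± 0.28 (adjusted p = 0.0845). Mmp9 followed with a difference of 1.503 ± 0.47 (adjusted p = 0.0886) and Mmp16 with 0.87 ± 0.28 (adjusted p = 0.094). Adamts5, Adamts1 and Adamts4 had 1.004 ± 0.35, -0.87 ± 0.31 and -0.99 ± 0.39 (adjusted p = 0.113, 0.114 and 0.146). Mmp12 and Mmp3 had differences of 0.08 ± 0.60 and -0.20 ± 0.55 (adjusted p = 0.958 and 0.863). The calls in cervix are therefore not shown to be particular to that tissue. Within the deeper libraries Mmp9 and Adamts5 passed, of 881 genes called in all, at 2.61 and 1.73 (adjusted p = 0.042 and 0.0409). Within the shallower ones Mmp9 was at -0.14. Of the other pathway genes 0 of 60 tested passed, with 13 at an unadjusted p under 0.05.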

How the data were processed

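Strand-specific total RNA libraries of mouse cervix and myometrium were sequenced, per the labels. The authors deposited raw counts per gene, and TopHat2 and build GRCm38 (mm10) were used, per the submitters' processing notes. No source used here names the aligner version, the counting tool or the counting strand. The values are whole numbers. Of 23079 identifiers, 23008 matched RefSeq names (GRCm38.p6), and the 71 others, holding 0.197% of counts, stayed in the tests. The closest pair of libraries within a group still had a chi-square per gene of 10.5, well over counting error.

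Genes were filtered with edgeR's filterByExpr and scaled by TMM. The main test was the quasi-likelihood test of edgeR, in its robust form, adjusted by Benjamini-Hochberg over all genes tested with a threshold of 0.05. Each comparison of 2 groups used their 20 libraries and the difference of responses all 40. SE is the log2 fold change over the square root of F. CPM used TMM factors of all 40 libraries, and CPM per kb the longest principal GENCODE transcript. Software was R 4.3.3, edgeR 4.0.16, limma 3.58.1 and DESeq2 1.42.0. The fit was tested on simulated counts for hCG against PBS in cervix, with the same dispersion for every gene and no library apart. That test does not cover libraries that stand apart, as several did here. Fully described genes were those called with hCG, the 6 largest tissue differences each way in PBS mice and 9 set genes. Mmp3, Mmp11, Ctsl, Mmp13 and Mmp10 were added after their values were seen. So were the libraries compared with marker sums or Afp, and hCG myometrium libraries 5, 6 and 8. The members, lists, left-out libraries and rules were chosen with earlier results of these data known. Alternatives were DESeq2, other scaling and filters, limma voom, all 40 libraries in 1 fit, a replicate block, depth class and left-out libraries. The main fits did not pair libraries by label number, since its meaning is not stated. Correlations of deviations were taken for shared numbers. Between cervix and myometrium, where a number could be 1 animal, 5 of 9 in PBS mice were over 0.1 (median 0.13, highest 0.61). In hCG mice 3 of 9 were (median 0.09, highest 0.37). Between hCG and PBS, where a number cannot be 1 animal, 4 of 9 were in cervix (median 0.08, highest 0.36). In myometrium 3 of 8 were (median -0.09, highest 0.26). These values cannot decide whether numbers pair libraries, since tissues of 1 animal need not correlate. The labels give no batch.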

Additional observations from a re-analysis of the deposited data

Results flagged for a closer look

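The level of a member was compared with the other 9 libraries of its group on the scale of log2(CPM + 1), and 13 of 126 pairs of a member and a group held 1 library further from the rest than Dixon's 95% critical value for 10 samples allows. Chance flags about 1 in 20 such pairs. The rule looks for 1 library apart, so several high libraries together can go unflagged. Ctsk in hCG myometrium libraries 5, 6 and 8, at 240, 288 and 402 CPM, was such a case. In PBS myometrium library 1, Mmp10 was at 5.28 CPM, Mmp11 at 108 CPM, Mmp14 at 350 CPM and Ctsk at 358 CPM, where the highest of the others were 0.501, 20.3, 226 and 88.5 CPM. In hCG cervix library 1, Mmp13 was at 91.6 CPM and the highest of the others at 1.56 CPM. In hCG cervix library 5, Timp3 was at 532 CPM and Plau at 124 CPM, with the others at most 215 and 71.7 CPM. Ctsb was at 1150 CPM in hCG cervix library 3 and at 2020 CPM in PBS cervix library R3, with the others at most 623 and 495 CPM. In the myometrium, Timp3 was at 346 CPM in PBS library 6 and Timp4 at 4 CPM in hCG library 5, with the others at most 260 and 0.943 CPM. The 2 low values were Reck at 15.8 CPM in hCG myometrium library 6 and Plau at 116 CPM in PBS myometrium library 8, where the lowest of the others were 21.5 and 195 CPM.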

How the results depend on the processing

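The counts of members called between the tissues kept within 1.5 times their value in all alternatives, at 14 to 22 in PBS mice and 15 to 24 in hCG mice, and at 20 to 21 and 21 to 24 when 1 library was left out. In the alternatives that did not leave out 1 library, all genes called ran from 4648 to 9106 in PBS mice. In hCG mice they ran from 3917 to 7577. For hCG in cervix the count of 8, of 1331 genes called in all, became 13 of 3424 with all 40 libraries in 1 fit. It became 4 of 508 with depth class as a term and 2 of 242 within the deeper libraries. No member was called within the shallower ones, without hCG libraries 1, 3 and 5, or without PBS libraries 5 to 8. In these fits 0, 0 and 1 genes of all were called. Leaving out 1 library gave 0 to 13. There were 5 without hCG library 5 or 7 (406 and 542 genes of all) and 3 without PBS library 10 (381). There were 13 without PBS library R3 (1877), and 0 without hCG library 3 or PBS library 4, 7 or 8. The cause was not tested. All genes called fell from 1331 to between 1 and 8 in those 4 fits with 0. For hCG in myometrium the count of 0 became 3 with DESeq2, of 384 genes called in all, and 0 to 2 when 1 library was left out. It was 1 without PBS library 2 (137 genes of all) and 2 without PBS library R3 (31). For the difference of responses the count of 0 became 2 with DESeq2 (566 genes of all), without PBS cervix libraries 5 to 8 (1138) and within the deeper libraries (881). It was 0 to 2 when 1 library was left out. There was 1 without hCG cervix library 9 or PBS cervix library 6 (499 and 678 genes of all), and 2 without PBS cervix library R3 (343). With the replicate block the counts were 6 for hCG in cervix, 0 in myometrium, 20 and 22 between the tissues and 0 for the difference. In the same order, 1172, 2, 8147, 5833 and 35 genes were called in all. Between the tissues, 3 of 9 numbers in PBS mice and 2 of 9 in hCG mice correlated best with their own number. The only called member value that changed sign was Mmp13 between the tissues of hCG mice, at -0.317 with DESeq2. Mmp10, Mmp13 and Timp4 had libraries at 0 counts, where depth sets the lowest level that can be seen. Mmp7 also had 0 counts in hCG cervix library 5 and PBS cervix library 4, of 22274244 and 24638825 total counts.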
